A study of Rattus norvegicus with 40 samples.

Results

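Plasma miRNAs with a neural background were followed after experimental traumatic brain injury (TBI), from the miR-9a, miR-135a, miR-137, miR-138, miR-153, miR-218a, miR-219a, miR-344b and miR-598 families. They were chosen by name, as every miRNA of the deposited read counts that carries 1 of these 9 stems, whatever its arm or copy suffix. This gave 22 of 752 miRNAs, of which 19 had a read in any library, against 581 of all 752. Adult male Sprague-Dawley rats underwent lateral fluid-percussion injury, in which a pulse of fluid strikes the exposed dura, or a sham-operation with the same surgery and no impact. Plasma came from tail vein blood drawn under isoflurane on D2 and D9 after the operation. The same 20 rats gave both samples, 1 library per rat and day, 40 in all. They were 4 sham-operated rats, 7 rats with epilepsy in the sixth month after TBI (TBI+) and 9 rats without (TBI−), as judged from video-EEG, so a TBI+ rat had no such diagnosis when its plasma was taken.

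MiRNAs are short RNAs that are cut from a hairpin precursor and guide repression of the mRNAs that they pair with, mainly through the seed near their 5′ end. Both arms of the hairpin (5p and 3p) can be released, and usually 1 of them dominates. Neurons and glia express characteristic sets of miRNAs, and injured brain tissue can release such RNA into blood, where red cells, platelets and other tissues supply most of the miRNA.

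The mature sequences of the members that the results turn on are given first, since 2 of them differ by a single base and since the named arms are otherwise hard to tell apart. In the RefSeq table of rat miRNAs (assembly GRCr8), 20 of the 22 members were found. Capitals mark the seed (bases 2 to 8, counted from the 5′ end).
miR-138-5p: aGCUGGUGuugugaaucaggccg
miR-218a-5p: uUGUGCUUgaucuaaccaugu
miR-218a-1-3p: aAACAUGGuuccgucaagcac
miR-218a-2-3p: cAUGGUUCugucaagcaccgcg
miR-219a-5p: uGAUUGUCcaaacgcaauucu
miR-219a-1-3p: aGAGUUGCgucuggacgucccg
miR-137-3p: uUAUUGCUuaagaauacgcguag
miR-153-3p: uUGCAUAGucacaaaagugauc
miR-344b-3p: gGUAUAACcaaagcccgacugu
miR-344b-1-3p: gAUAUAACcaaagcccgacugu

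No 2 of the 20 sequences share a seed. The miR-344b-3p and miR-344b-1-3p sequences of 22 bases differ by 1 substitution, G2A, which lies in the seed (position counted from 1 at the 5′ end, miR-344b-3p first). The seed of miR-344b-1-3p is also that of miR-410-3p.

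In GRCr8, miR-153-3p lies at chr6:144306646-144306667 on the plus strand, within the span and on the strand of Ptprn2, a gene of secretory vesicles. MiR-137-3p lies at chr2:209165767-209165789, plus strand, within the span of a long noncoding RNA gene. MiR-218a-5p has copies at chr10:20572547-20572567 (plus strand) within Slit3 and chr14:66922413-66922433 (minus strand) within Slit2, genes of axon guidance ligands. MiR-138-5p likewise has a copy at chr8:131178456-131178478 (plus strand) and another at chr19:10680184-10680206 (minus strand). MiR-344b-1-3p lies at chr1:124035684-124035705, and copies of miR-344b-3p flank it at chr1:124028508-124028529 and chr1:124044539-124044560, all on the minus strand. The Mir598 gene occupies chr15:42138609-42138687 within the span of Xkr6. The authors aligned to the older Rno6, so these positions are not theirs.

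Total miRNA reads per library were 404542 to 2562083 on D2 and 140636 to 2864893 on D9. The shallowest libraries were those of the sham-operated rats on D9, at 140636 to 358202 reads. Values are given as reads and as CPM, the reads of a miRNA per 1000000 reads of its library. In the sham D9 libraries 3 reads already amounted to 8.38 to 21.3 CPM, whereas in the D2 libraries they amounted to 1.17 to 7.42 CPM. Such limits, and the intervals on ratios of reads, cover counting error only, since PCR copies are not independent molecules. The erythrocyte miRNA miR-451-5p and the liver miRNA miR-122-3p, which plasma is known to carry, had reads in all 40 libraries, whereas the other arm of the latter, miR-122-5p, was listed at 0 in all of them. The library numbers in the labels fall into 3 series, whose meaning the labels do not state. All sham D2 libraries and those of TBI+ rats 1 to 4 on D2 are in series 1, and all sham D9 libraries are in series 3. The TBI− libraries of D2 are in series 2 and 3, and the other TBI+ libraries of D2 are in series 2. On D9 the TBI− libraries are in series 1 and 2 and the TBI+ libraries in series 1 and 3. Injury and series are thus partly confounded in TBI or TBI+ against sham, and wholly in TBI− against sham, on both days.

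Most of the 22 miRNAs were scarce. Together they took 0.0374% to 0.222% of the reads of a library. Of their 44062 reads, 40314 (91.5%) were miR-138-5p, which ranked 68 among all miRNAs by total reads. The next were miR-218a-5p with 751 reads over the 40 libraries, miR-219a-1-3p with 607, miR-598-3p with 544 and miR-219a-5p with 528. Reads were not scaled by length, which lay between 21 and 23 bases for the sequences above.

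More than 3 reads were found in any library for 14 of the 22 members and in all 40 libraries for miR-138-5p alone, whose lowest count was 106. MiR-218a-5p and miR-219a-1-3p exceeded 3 reads in 38 of 40 libraries each, miR-598-3p in 32 and miR-219a-5p in 31. MiR-344b-3p did so in 23 libraries, miR-153-3p in 22, miR-138-1-3p in 21, miR-218a-1-3p in 16 and miR-344b-1-3p in 14. At the sparse end were miR-137-3p and miR-218a-2-3p with 6 libraries each, miR-138-2-3p with 3 and miR-135a-5p with 1. All 20 D2 libraries had more than 3 reads of miR-138-5p and of miR-219a-1-3p.

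**Figure D1:**
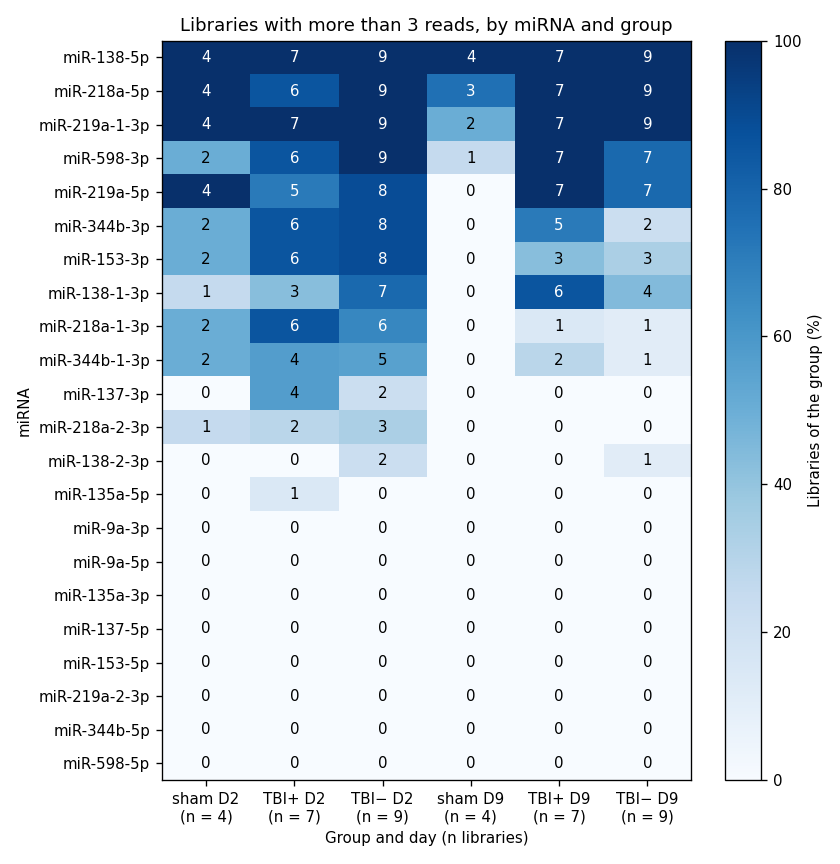
Number of libraries with more than 3 reads (printed), and the share of the group's libraries in percent (shade), for the 22 miRNAs in rows and the 6 groups by day in columns. The sham D9 column is the emptiest, with 4 miRNAs above 3 reads in any of its 4 libraries, against 11 in the sham D2 column.

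The other 8 members never exceeded 3 reads. MiR-9a-3p, miR-137-5p and miR-219a-2-3p were listed at 0 in every library. MiR-9a-5p, a miRNA of neural progenitors, had 2 reads over all 40 libraries. MiR-135a-3p had 5, miR-153-5p and miR-598-5p had 2 each, and miR-344b-5p had 1. For miR-9a and miR-219a-2-3p a low count does not show a low level: all 3 Mir9 hairpin genes and Mir219-2 overlap a second annotated miRNA gene (Mir3597-1 to Mir3597-3 and Mir2964). Across the table, 86 of the 121 miRNAs whose genes all overlap another miRNA gene in GRCr8 were listed at 0 in all libraries (71.1%), against 68 of the 558 without such an overlap (12.2%). How reads in such overlaps were assigned is not stated in the sources used here, and its part in the zeros was not tested. The overlap also touches miR-218a-1-3p (Mir3565), 1 of the 2 copies of miR-218a-5p (Mir3565) and the Mir219-2 copy of miR-219a-5p. These miRNAs had reads. The sequences of miR-218a-5p and miR-219a-5p each lie in 2 hairpins, so their reads cannot be credited to the overlapped copy.

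In the families with both arms measured, 1 arm held most reads except in miR-219a and in the barely detected miR-135a (7 reads of 5p, 5 of 3p). MiR-138-5p had 40314 reads against 201 of miR-138-1-3p and 37 of miR-138-2-3p, the opposite arms of its 2 hairpins. MiR-218a-5p had 751 against 123 of miR-218a-1-3p and 57 of miR-218a-2-3p. The balance lay on the other side in miR-153 (322 reads of 3p, 2 of 5p) and miR-598 (544 of 3p, 2 of 5p). MiR-219a-5p and miR-219a-1-3p were near each other, at 528 and 607 reads.

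MiR-138-5p, which restrains the growth of dendritic spines and is also made outside the brain, was the only member deep enough for a narrow comparison. On D2 the sham-operated rats had 1030, 1172, 1096 and 1056 CPM. TBI+ rats ranged from 775 to 1969 CPM with a median of 1091, and TBI− rats from 437 to 1126 with a median of 862. The groups overlapped: 1 of the 16 TBI rats lay above all sham-operated rats and 7 lay below. The log2 fold change (log2FC) between TBI and sham was −0.05 with an interval of −0.47 to 0.38, so no difference was shown (edgeR, adjusted p = 0.930).

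On D9 miR-138-5p had 1131, 1320, 1361 and 296 CPM in the sham-operated rats, 312 to 1061 (median 495) in TBI+ and 397 to 2141 (median 967) in TBI− rats. Sham rat 4 lay far below the other sham rats, and the groups again overlapped (log2FC −0.21, SE 0.38, edgeR adjusted p = 0.859).

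TBI+ rats had more miR-138-5p than TBI− rats on D2, at 1177 ± 371 against 838 ± 250 CPM (SD, n = 7 and n = 9). On D9 the order was the other way round, at 624.6 ± 261 against 988 ± 569 CPM. Neither difference passed the test across all miRNAs (edgeR adjusted p = 0.665 on D2 and 0.802 on D9), and whether the difference changed between the days was not tested. TBI+ and TBI− libraries fall in different mixes of library series on each day, so outcome and series are partly confounded.

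**Figure D2:**
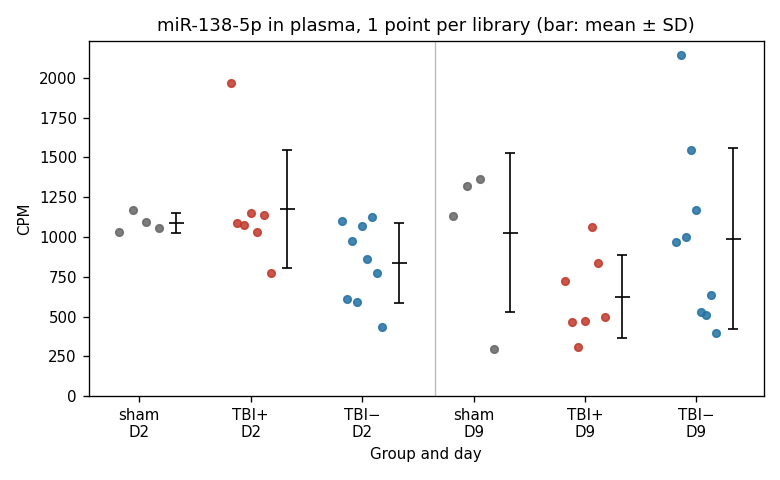
CPM of miR-138-5p in each of the 40 libraries by group and day, with mean ± SD beside the points. On D2 TBI+ rat 1 stands at 1969 CPM, while the other TBI+ rats lie between 775 and 1153.

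The comparison of TBI with sham on D2 asks which miRNAs in blood respond to the acute injury. In a plasma library, more releasing cells and more RNA released per cell cannot be told apart. Of the 18 members with a read that day, 1 was called at an adjusted p below 0.05, miR-598-3p, which was upregulated. Over all 565 miRNAs the called share was 6.19%, and 1 of 18 is no more than that. At an unadjusted p below 0.05 there were 5 members.

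MiR-598-3p, a miRNA listed among those enriched in brain, had 3.37, 9.17, 2.98 and 3.00 CPM in the sham-operated rats on D2, from 2, 12, 2 and 4 reads. In the 16 TBI rats it ranged from 3.97 to 40.3 CPM with a median of 14.2. Of the TBI rats, 11 lay above the highest sham rat and none below the lowest, and the others overlapped with sham rat 2. The fitted change was a log2FC of 1.91 (SE 0.56, edgeR adjusted p = 0.0340), a 3.76-fold difference. The call was lost without sham rat 1 (adjusted p = 0.130), 3 (0.106) or 4 (0.142), while the log2FC stayed between 1.68 and 2.62 with any sham rat left out.

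TBI− rats alone had 7.69 to 40.3 CPM of miR-598-3p (median 13.7), and they differed from sham with a log2FC of 2.04 (SE 0.58, edgeR adjusted p = 0.0281). This was the only member called, 1 of 18 against 6.19% of all miRNAs. No TBI− library of D2 shares a library series with the sham D2 libraries, so injury and series cannot be told apart here. TBI+ rats had 3.97 to 27.7 CPM (median 14.6) and a log2FC of 1.74 (SE 0.59, adjusted p = 0.114). Between TBI+ and TBI− rats miR-598-3p did not differ beyond the spread (log2FC −0.30, interval −1.09 to 0.49, adjusted p = 0.885), so the call in 1 of the 2 groups is no difference between them.

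The reads of miR-598-3p were mostly even numbers. They were even in 35 of the 37 libraries with any read, as against 18 of 40 for miR-138-5p and 19 of 33 for miR-153-3p. The pattern was not confined to miR-598-3p. In libraries with more than 3 reads its counts were even in 30 of 32, those of miR-218a-1-3p in 15 of 16 and those of miR-219a-5p in 22 of 31. The cause was not tested, and the counts of miR-218a-1-3p were not halved in any fit. With the counts of miR-598-3p and miR-344b-3p halved, a setting added after the data were seen, the log2FC between TBI and sham on D2 was 1.88 and the call was lost (adjusted p = 0.0652).

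MiR-153-3p, a neuronal miRNA known to repress α-synuclein and the synaptic protein SNAP-25, had 0, 7.64, 1.49 and 5.26 CPM in the sham-operated rats on D2. The TBI rats ranged from 2.52 to 32.2 CPM with a median of 10.7, and 11 of 16 exceeded all sham-operated rats. The log2FC was 1.62 (SE 0.63), which did not pass (edgeR adjusted p = 0.152). It passed with DESeq2 (1.80, adjusted p = 0.0490), which called 2 of 18 members and 8.14% of all miRNAs. TBI+ rats had the 2 highest values, 32.2 and 29.3 CPM in rats 1 and 2, against a highest of 24.7 in TBI− rats. Against sham, TBI+ rats had a log2FC of 1.88 (adjusted p = 0.123). Within library series 1, which holds all sham D2 libraries and 4 of the TBI+ libraries, it was 2.32 and passed (adjusted p = 0.00435). Those 4 include TBI+ rats 1 and 2. In the same subset miR-598-3p (adjusted p = 0.154) and miR-137-3p (adjusted p = 0.152) did not pass.

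MiR-137-3p, a regulator of neuronal maturation and of synapses, had 1 read in the 4 sham D2 libraries together, in sham rat 4. The TBI+ rats all had reads, from 1 to 9, and TBI− rats had 0 to 6. Of the 16 TBI libraries, 14 lay above the highest sham library in CPM, but the pooled ratio of 9.71 had an exact 95% interval of 1.67 to 391. The fitted log2FC of 2.95 (SE 0.99) did not pass (edgeR adjusted p = 0.0804). In TBI+ rats the median was 3.26 CPM, against 1.06 in TBI− rats (log2FC 0.97, SE 0.58, adjusted p = 0.779).

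**Figure D3:**
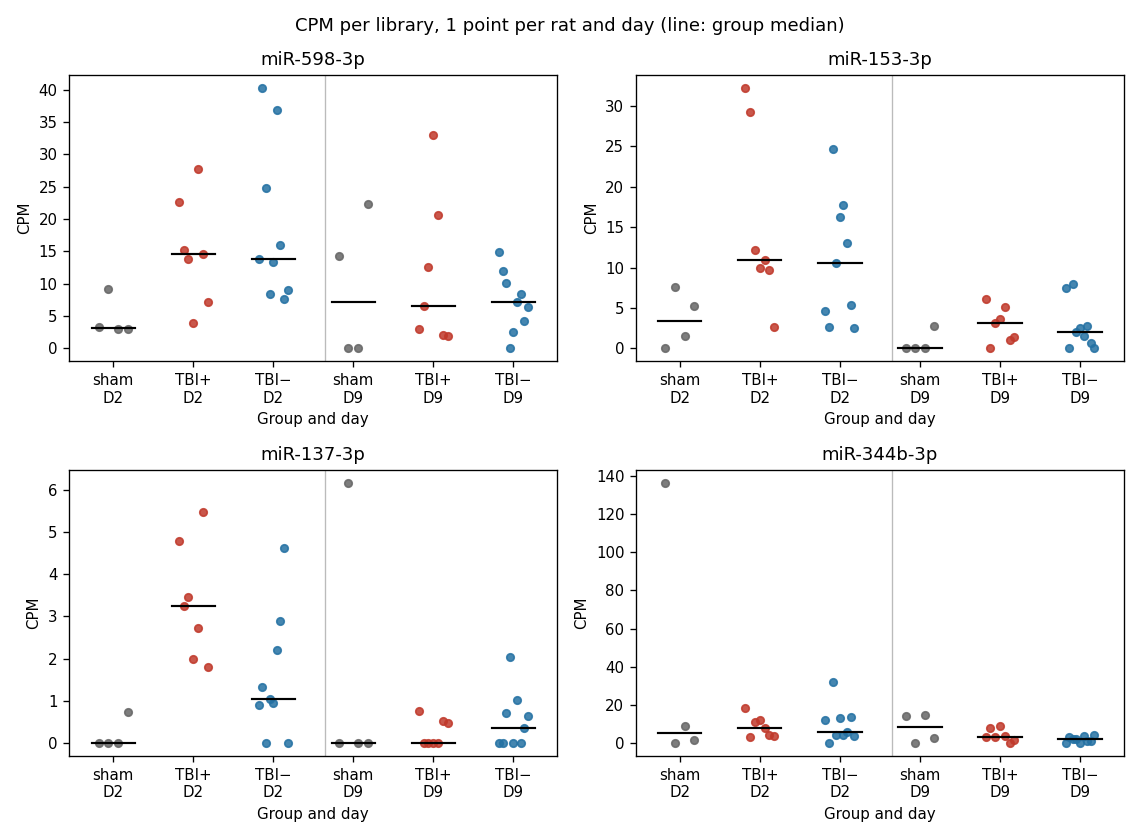
CPM per library of miR-598-3p, miR-153-3p, miR-137-3p and miR-344b-3p, by group and day, with a line at each group's median. In the first 3 panels the D2 medians of both TBI groups lie above that of the sham group, and in the miR-344b-3p panel sham rat 1 stands alone at 136 CPM.

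The miR-344b arms, of a rodent family known from developing brain, were dominated by a single library. Sham rat 1 had 81 reads of miR-344b-3p on D2 (136 CPM), and the other sham-operated rats had 0, 8.93 and 1.502 CPM. The TBI rats had 0 to 32.1 CPM with a median of 6.81. The log2FC between TBI and sham was −1.68 (SE 0.67, edgeR adjusted p = 0.162), and without sham rat 1 its sign reversed to 1.70 (adjusted p = 0.346). Without sham rat 2, which had no read, it was −2.13 and passed (adjusted p = 0.0397). MiR-344b-1-3p had 67.3 CPM in sham rat 1 and at most 5.96 in the other sham rats, and its log2FC was −1.60 (adjusted p = 0.222). On D9 sham rat 1 had 2 reads of miR-344b-3p and 0 of miR-344b-1-3p.

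The counts of the 2 miR-344b 3p arms went together and may not be independent measurements. Over the 40 libraries miR-344b-3p had 326 reads and miR-344b-1-3p had 170, a ratio of 1.92. Of the 35 libraries with a read of either, 33 had a miR-344b-3p count within 3 reads of 2 times that of miR-344b-1-3p, and 22 within 1 read. The medians over the 40 libraries were only 4 and 2 reads, so a tolerance of 3 reads is easily met. It cannot show that 1 count depends on the other. MiR-344b-3p lies in 2 hairpins and miR-344b-1-3p in 1, and the source of the ratio was not tested. The base at position 2 (G2A) is all that separates the printed sequences.

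**Figure D4:**
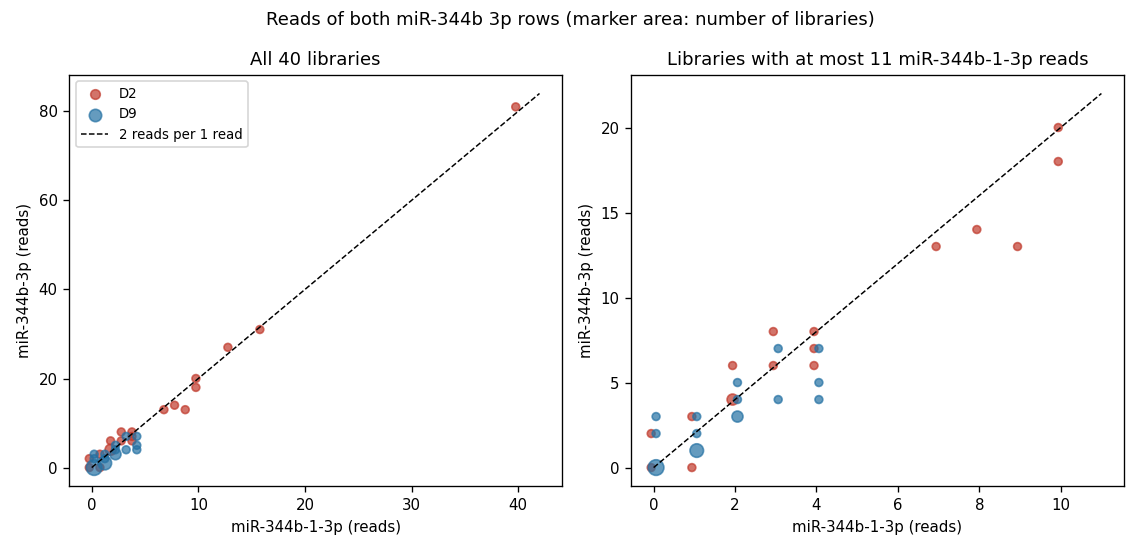
Reads of miR-344b-3p (vertical) against miR-344b-1-3p (horizontal) in each library, all 40 on the left and those with at most 11 reads of miR-344b-1-3p on the right, with D2 and D9 points set slightly apart for clarity. The points follow the dashed line of 2 reads per 1 read up to sham rat 1 on D2 at 81 and 40 reads.

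For the remaining members with reads in most D2 libraries no difference between TBI and sham was shown. Most intervals were wide, for example −1.19 to 0.95 for miR-219a-5p and −0.45 to 1.28 for miR-218a-5p, so changes within them remain possible. MiR-218a-5p, which helps to set motor neuron identity, had 8.41, 11.5, 13.4 and 20.3 CPM in sham-operated rats and 0 to 33.9 (median 17.7) in TBI rats (log2FC 0.42, SE 0.44, edgeR adjusted p = 0.650). MiR-219a-5p and miR-219a-1-3p come from a miRNA that drives oligodendrocyte differentiation. The first had 9.76 to 23.8 CPM in sham-operated and 0 to 30.5 in TBI rats (log2FC −0.12, SE 0.55), and 8 of the 16 TBI rats lay below all sham rats and 2 above. MiR-219a-1-3p had 7.45 to 23.6 CPM in sham-operated rats, and all TBI rats lay within that range (log2FC −0.06, interval −0.68 to 0.56). For miR-138-1-3p the log2FC was 0.29 (SE 0.62), for miR-218a-1-3p 0.44 (SE 0.54) and for miR-218a-2-3p −0.35 (SE 0.82).

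With TBI+ rats alone, 0 of 18 members were called against sham on D2 by edgeR, where 3.19% of all miRNAs were. At an unadjusted p below 0.05 there were 5 members, and DESeq2 called 3, beside 6.02% of all miRNAs. They were miR-137-3p (adjusted p = 0.0499), miR-153-3p (0.0473) and miR-598-3p (0.0437). The comparison of TBI+ with TBI− asks which miRNAs mark the rats that later develop epilepsy. On D2 edgeR called 0 of 18 members and 0% of all 565 miRNAs, and DESeq2 called no member. At an unadjusted p below 0.05 there were 2 members, miR-138-5p and miR-138-1-3p. MiR-138-1-3p had 2.48 ± 0.91 CPM in TBI+ and 5.46 ± 3.21 in TBI− rats (SD, n = 7 and n = 9, log2FC −1.14, SE 0.51, adjusted p = 0.665), the opposite direction to miR-138-5p.

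As a setting for these values, a list of 23 other miRNAs known to be enriched in brain, miR-124, miR-129, miR-132 and miR-128 among them, was taken through the same fit. It was drawn up with earlier results of these data known. On D2, 11 of its 22 miRNAs with reads were higher in TBI than in sham and none was lower. Among the members 1 of 18 was higher, and among all 565 miRNAs 18 were. The list was not matched to the members in read depth and its choice knew these data. The 2 counts therefore do not show that the members respond less. The summed level of the list overlapped between the groups, at 4191 to 16050 CPM in TBI (median 7581) and 4915 to 8634 in sham-operated rats (median 6686). No miRNA of the red cell, muscle and liver lists was called on D2 between TBI and sham.

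**Figure D5:**
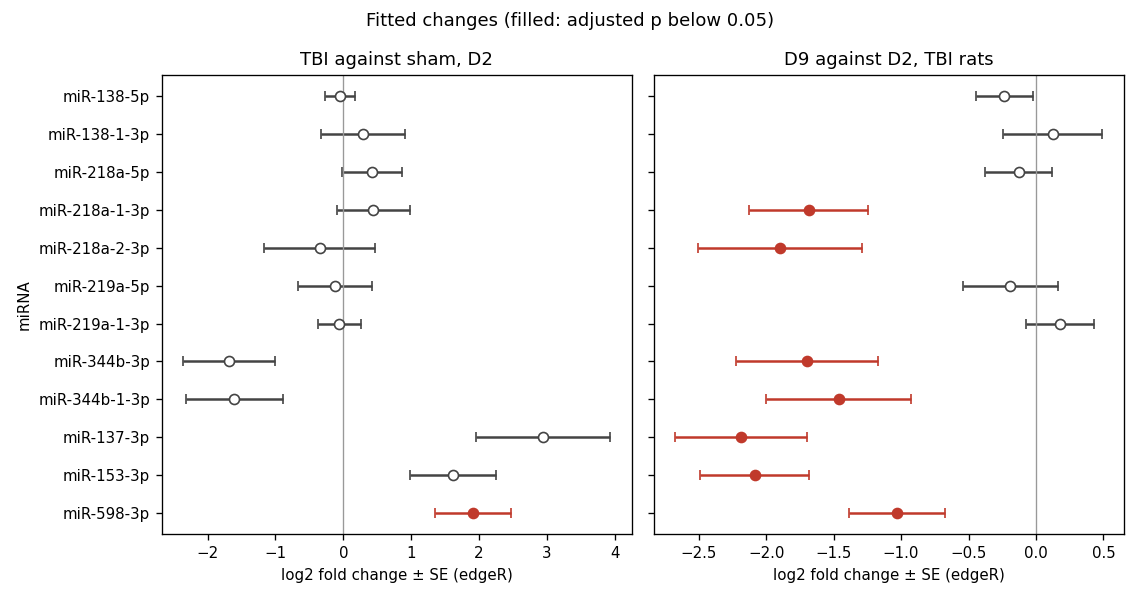
Fitted log2 fold changes with their SE for the 12 members with the most reads or a call, TBI against sham on D2 (left) and D9 against D2 in TBI rats (right), with filled points for an adjusted p below 0.05. On the left miR-598-3p alone is filled, at 1.91, and on the right 7 miRNAs are filled, between −2.19 and −1.03.

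On D9 no member passed the test between TBI and sham. By edgeR 0 of 16 members with a read were called, against 3.51% of all 541 miRNAs, and DESeq2 called 0. At an unadjusted p below 0.05 there was 1 member, miR-135a-3p, with 1 read in the sham-operated and 0 in the TBI rats. TBI+ rats alone gave 0 of 16 (1.85% of all) and TBI− rats alone 0 of 16 (4.81% of all), each with 1 member at an unadjusted p below 0.05. Between TBI+ and TBI− rats 0 of 16 members and 0% of all miRNAs were called, and 0 members had an unadjusted p below 0.05. Only 4 members exceeded 3 reads in any sham D9 library. MiR-598-3p, for example, had 14.2, 0, 0 and 22.3 CPM in sham-operated rats from 2, 0, 0 and 8 reads, and 0 to 33.03 CPM (median 6.87) in TBI rats. MiR-218a-5p, with 7.11, 37.0, 24.7 and 39.1 CPM in the sham-operated rats and 9.39 to 23.1 in TBI rats, had a log2FC of −0.76 (SE 0.39, adjusted p = 0.367).

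Between the days, within the 16 TBI rats, 7 of the 19 members with reads were lower on D9 than on D2 and none was higher. In all miRNAs, 32.0% were called in either direction and 18.1% were called lower, beside 36.8% of the members. The median log2FC of the 19 members was −0.87 against 0.06 over all 581, but 5 of the 19 had no read on 1 of the days. With such miRNAs set to the change that 3 reads would give, or to no change, the medians were −0.19 and 0.00. The depth of the TBI libraries was near equal on both days, with medians of 1227990 and 1284390 reads.

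MiR-153-3p fell by 2.08 on the log2 scale (SE 0.40, edgeR adjusted p = 5.29e-05). Its median dropped from 10.7 CPM on D2 to 2.25 on D9, where the TBI rats had 0 to 7.94 CPM. In 15 of the 16 TBI rats the D9 value was below the D2 value of the same rat. MiR-137-3p fell by 2.19 (SE 0.49, adjusted p = 3.77e-04), from a median of 2.10 to 0.175 CPM, and was lower in 13 of 16 rats. These values rest on 52 reads on D2 and 9 on D9 over the 16 rats, with at most 2 reads in a D9 library.

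The hairpin arms of miR-218a parted. MiR-218a-1-3p fell by 1.69 (SE 0.44, edgeR adjusted p = 0.00221) and was lower in 14 of 16 rats. MiR-218a-2-3p fell by 1.90 (SE 0.61, adjusted p = 0.0129), with 40 reads on D2 and 8 on D9 over the 16 rats. The common 5p arm, miR-218a-5p, had medians of 17.7 and 15.2 CPM, was lower in 8 rats and higher in 8, and was not called (log2FC −0.13, interval −0.62 to 0.36). The difference between the arms was not itself tested.

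MiR-344b-3p fell by 1.70 (SE 0.53, adjusted p = 0.0106) and miR-344b-1-3p by 1.46 (SE 0.54, adjusted p = 0.0301). Their counts went together, as described above, so the 2 calls may not be independent. MiR-598-3p fell by 1.03 (SE 0.36, adjusted p = 0.0210), from a median of 14.2 to 6.87 CPM, and was lower on D9 in 14 of 16 rats. The other members with many reads showed no call in either direction, with a log2FC of −0.24 (SE 0.21) for miR-138-5p, −0.19 (SE 0.35) for miR-219a-5p, 0.18 (SE 0.25) for miR-219a-1-3p and 0.13 (SE 0.37) for miR-138-1-3p.

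Since the same rats were sampled on both days, the fit was repeated with the rat as a block. In that paired fit 6 of the 7 calls held, and miR-218a-2-3p was lost (27.9% of all miRNAs were called). With the library series as a term, 8 of 19 members were called, beside 27.3% of all miRNAs. Within series 1 alone 2 of 16 members were called beside 10.8% of all miRNAs, within series 2 alone 4 of 17 beside 21.5%, and within series 3 alone 0 of 16 beside 7.85%. The log2FC of miR-153-3p in these series was −2.64, −2.37 and −1.39, and that of miR-344b-3p was −2.27, −2.29 and −0.36. Day and outcome group are confounded within the series. In series 3 the TBI libraries of D2 are all TBI− and those of D9 all TBI+. In series 1 those of D2 are all TBI+, and in series 2 those of D9 are all TBI−. The values within a series are thus not changes with the day alone. TBI+ rats alone gave 3 called members of 18 beside 20.8% of all miRNAs, and TBI− rats alone 5 of 18 beside 20.1%. Of the 7 above, only miR-153-3p (edgeR adjusted p = 0.00348) and miR-137-3p (0.00411) were called in TBI+ rats alone. MiR-598-3p was not (log2FC −0.62, adjusted p = 0.403). In TBI− rats alone miR-137-3p (adjusted p = 0.136) and miR-218a-2-3p (0.0794) were not called. Whether the falls differed between the 2 groups was not tested.

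The hemolysis index moved with the day. The index, log2 of miR-451-5p over miR-23a-3p, had a median of −0.16 on D2 (−1.21 to 0.90) and 1.24 on D9 (0.06 to 2.39) in TBI rats. In sham-operated rats its medians were −0.51 and 1.13, while the median of miR-451-5p itself was 2884 CPM on D2 and 3199 on D9. All 3 red cell miRNAs with a row in the table were higher on D9 than on D2 in TBI rats and 0 of 3 were called in sham-operated rats (median log2FC 0.15, edgeR). In TBI rats, their summed level went from 1673 to 6543 CPM (median 3687) to 2483 to 13570 (median 6106). With the index as a covariate 0 of the 19 members and 62 of 572 miRNAs (10.8%) were called between the days. Because the index itself differed between the days, this fit cannot tell a change with the day from one with the index. The log2FC then was −1.53 (SE 0.62) for miR-153-3p, −1.39 (SE 0.75) for miR-137-3p, −1.41 (SE 0.65) for miR-218a-1-3p, −1.47 (SE 0.65) for miR-344b-3p and −0.54 (SE 0.51) for miR-598-3p. Of the muscle list, 3 of 5 miRNAs had reads and 1 of them (miR-133b-3p) was lower on D9, and of the liver list 1 of 2 had reads and was not called. The listed miR-1-3p, miR-133a-3p and miR-122-5p, which define muscle and liver, stood at 0 in all libraries, as did the brain-enriched miR-434-3p. These zeros do not show absence of muscle or liver miRNA, since miR-133b-3p and miR-122-3p had reads in all 40 libraries.

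Over all 581 miRNAs, 105 were called lower and 81 higher on D9 than on D2 in TBI rats. Among the other brain-enriched miRNAs, 11 of 22 were lower and 1 was higher, beside 7 and 0 of 19 members. The exception was miR-541-5p (log2FC 1.86). As for D2, the choice of the list knew these data, and the list was not matched to the members in read depth. These counts therefore do not show how the members compare with other brain-enriched miRNAs.

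In the sham-operated rats 0 of 19 members were called between the days by edgeR and 0 by DESeq2, against 6.71% of all miRNAs, with 1 member at an unadjusted p below 0.05. The sham D2 and D9 libraries lie in different library series and differ in depth, so day, series and depth cannot be told apart in them. The change between the days was compared between TBI and sham-operated rats with an interaction term. It gave 0 of 19 members, by edgeR and by DESeq2, and 3.79% of all miRNAs. At an unadjusted p below 0.05 there were 2 members, miR-135a-3p and miR-598-3p (difference in log2FC −2.13, SE 1.02, adjusted p = 0.294). The lower D9 values in TBI rats were thus not shown to differ from the change in sham-operated rats.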

How the data were processed

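Small RNA of plasma was sequenced by the authors, who trimmed reads (Trimmomatic 0.36, minimum length 17 nt), merged 2 flow cells per sample, aligned them to Rno6 with Bowtie2 and counted mature miRNAs of miRBase 22 with featureCounts. The deposited values are raw read counts of 752 miRNAs in 40 libraries. Strand and multi-mapping settings are not given in the sources used here.

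Counts were fitted with edgeR 4.0.16 (quasi-likelihood test, TMM, R 4.3.3), with Benjamini-Hochberg adjustment over all miRNAs with a read (565 on D2, 541 on D9, 581 over both). A miRNA was called at an adjusted p below 0.05. TBI against sham used the 20 libraries of a day in 2 groups, TBI+ and TBI− fits used 3 groups, and day comparisons used 40 libraries in 4 groups. The SE is the absolute log2FC over the square root of F, and intervals are 1.96 SE. Members named in full had more than 3 reads in at least 10 of the 20 libraries of a day or a call. Members and lists were chosen with earlier results of these data known.

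Alternatives were DESeq2 1.42.0, RLE, library totals, miR-28-3p scaling, filterByExpr, sham rats left out in turn and a replicate block. Those added later were halved counts, library series, the hemolysis index (1 read added to both counts) and each TBI group alone. The library of each rat is a separate animal. D2 and D9 libraries of a rat are paired by the animal named in the labels (correlation of deviations −0.35 to 0.40, median −0.05, over 20 rats).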

Additional observations from a re-analysis of the deposited data

Results flagged for a closer look

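For the 10 members with more than 3 reads in at least 10 of the 20 libraries of a day, the highest and the lowest CPM of each group and day were compared with the rest of the group by Dixon's ratio, over 60 groups, and 15 single values stood apart. For normally distributed values chance sets apart about 1 in 20 groups, and the rate for counts as low as these was not estimated. All were high values, and many rest on few reads.

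MiR-344b-3p stood apart in sham rat 1 on D2 (136.3 CPM from 81 reads) and in TBI− rat 3 on D2 (32.14 CPM from 13 reads). The same libraries stood apart for miR-344b-1-3p, at 67.3 CPM (40 reads) and 22.25 CPM (9 reads). MiR-138-5p had 1969 CPM in TBI+ rat 1 on D2 from 3297 reads, against at most 1153 CPM in the other TBI+ rats. MiR-598-3p had 9.171 CPM in sham rat 2 on D2 (12 reads). MiR-219a-1-3p had 19.47 CPM in TBI+ rat 6 on D2 (32 reads) and 44.78 CPM in TBI− rat 4 on D9 (22 reads). MiR-138-1-3p had 10.42 CPM in sham rat 3 on D2 (7 reads) and 12.84 CPM in TBI+ rat 4 on D9 (7 reads), and miR-218a-1-3p had 5.15 CPM in TBI+ rat 5 on D9 (4 reads).

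Among the shallow sham libraries of D9, 4 of the flagged values came from 1 or 2 reads beside 3 libraries at 0. They were 5.583 CPM of miR-138-1-3p, 2.792 CPM of miR-153-3p and 2.792 CPM of miR-344b-1-3p in sham rat 4, and 6.168 CPM of miR-218a-1-3p in sham rat 2.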

How the results depend on the processing

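The number of members called between TBI and sham on D2 (1) was 2 with DESeq2, 2 with the animal number as a replicate block (miR-598-3p and miR-153-3p in either), 0 with the counts of miR-598-3p and miR-344b-3p halved, and 0 to 2 with a sham rat left out. For TBI− against sham (1) it was 2 with that block, 0 with halved counts and 0 to 1 with a sham rat left out. For TBI+ against sham (0) it was 3 with DESeq2 and 1 each with RLE, miR-28-3p scaling, the replicate block and the shared library series. The animal number is only a number across groups (12 pairs on D2, median correlation −0.09), so the blocked fit says nothing of paired animals there. For D9 against D2 in TBI rats (7) the number was 3 with filterByExpr, which left fewer members to test, 2, 4 and 0 within library series 1, 2 and 3, 0 with the hemolysis index and 3 in TBI+ rats alone. Not all 3 called in TBI+ rats alone were among the 7. The causes of the other shifts were not tested. The log2FC of miR-344b-3p between TBI and sham on D2 (−1.68) reversed to 1.70 without sham rat 1, and ranged from −2.24 to 1.70 with a sham rat left out. The other counts, 0 for each D9 comparison, for TBI+ against TBI− on both days, for the sham rats between the days and for the interaction, were 0 under every alternative run. The paired block on rats changed only the call of miR-218a-2-3p between the days. The sham group has 4 rats, and its D9 libraries hold 140636 to 358202 reads. What size of difference could be detected at that depth was not tested.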

Other observations

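MiRNAs whose CPM ranked the 16 TBI libraries of D2 most like a member were looked up among 259 miRNAs with a mean of at least 10 CPM, for the 2 members with more than 3 reads in all 16. For miR-138-5p they were miR-24-2-5p (Spearman's rho 0.741), miR-128-3p (0.656), a miRNA common in brain, and miR-3085 (0.653). For miR-219a-1-3p they were miR-125b-2-3p (0.676), miR-34a-5p (0.638) and miR-125b-1-3p (0.544). These are descriptions over libraries that share a day and a scaling, and the highest of many candidates.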
